A study of Homo sapiens with 15 samples.

Results

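The comparison was between 2 human pancreatic cancer cell lines, AsPC-1 and Capan-1, each carrying a control siRNA (siNC) and no knockdown. It used 6 of the 15 RNA-seq libraries of the series, chosen by their labels: 3 of AsPC-1 siNC and 3 of Capan-1 siNC. The study silenced B4GALT5 or B3GNT3, 2 enzymes that extend sugar chains, in AsPC-1, and B3GNT3 in Capan-1, and its title relates both enzymes to MHC class I and T cell responses. The libraries with siB3GNT3, 3 of each line, served here as another set of the same lines, and those with siB4GALT5 entered only 1 alternative fit, of all 15 libraries. All libraries were total RNA of cultured cells that had been transfected with an siRNA, so no untransfected cells were compared. AsPC-1 was derived from the ascites and Capan-1 from a liver metastasis of patients with pancreatic adenocarcinoma. The source label of the Capan-1 libraries reads Capable-1, while their titles read Capan-1. The names below are those of the titles.

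Ductal pancreatic cancer cells are epithelial: they carry simple keratins, E-cadherin junctions and mucins, and are often sorted into a classical, gland-like state and a basal-like state. Their surface glycans are built by families of Golgi transferases, including the beta-1,4-galactosyltransferases and beta-1,3-N-acetylglucosaminyltransferases to which the study's targets belong. MHC class I molecules, loaded with peptide in the endoplasmic reticulum, are what CD8 T cells read, and their genes, like many antiviral genes, respond to interferon.

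Levels are FPKM, fragment counts scaled by transcript length and library depth, as deposited. Differences are AsPC-1 minus Capan-1 on the log2(FPKM + 1) scale, which understates the change of low genes. A gene was tested when it reached 1 FPKM in at least 3 of the 6 libraries, and was called when its adjusted p in limma was under 0.05 and the difference at least 2-fold. Of 25503 genes in the table, 11656 were tested. The call was made for 1101 genes higher in AsPC-1, 9.45% of those tested, and for 1963 genes higher in Capan-1, 16.8%. At any fold, 37.9% of the tested genes were higher in AsPC-1 and 47.0% in Capan-1 with an adjusted p under 0.05, so a difference in that test alone says little about any list below. The median difference of all tested genes was -0.09. Some genes passed the filter through 1 line alone: 408 with all Capan-1 libraries under 1 FPKM, of which 273 were called, and 1228 with all AsPC-1 libraries under it, of which 953 were called. The filter favours a difference in such genes, so their number is given beside the lists that hold many of them. The libraries of the lines did not overlap for 85.5% of all tested genes, so a lack of overlap is by itself no mark of any gene.

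The libraries of a line lay close together. The root mean square log2 difference over the tested genes was 0.132 to 0.143 between libraries of a line and 1.18 to 1.19 between lines. Relative depth, read from the steps that single reads leave in low FPKM values, was 0.99 to 1.008 over the 6 libraries. Genes at 1 FPKM or more numbered 10339 to 10407 in the AsPC-1 libraries and 11300 to 11314 in those of Capan-1. No label names separate cultures, so a p-value speaks only of how these libraries scatter. Each line is 1 line: the line, its culture and its library preparation cannot be told apart.

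**Figure D1:**
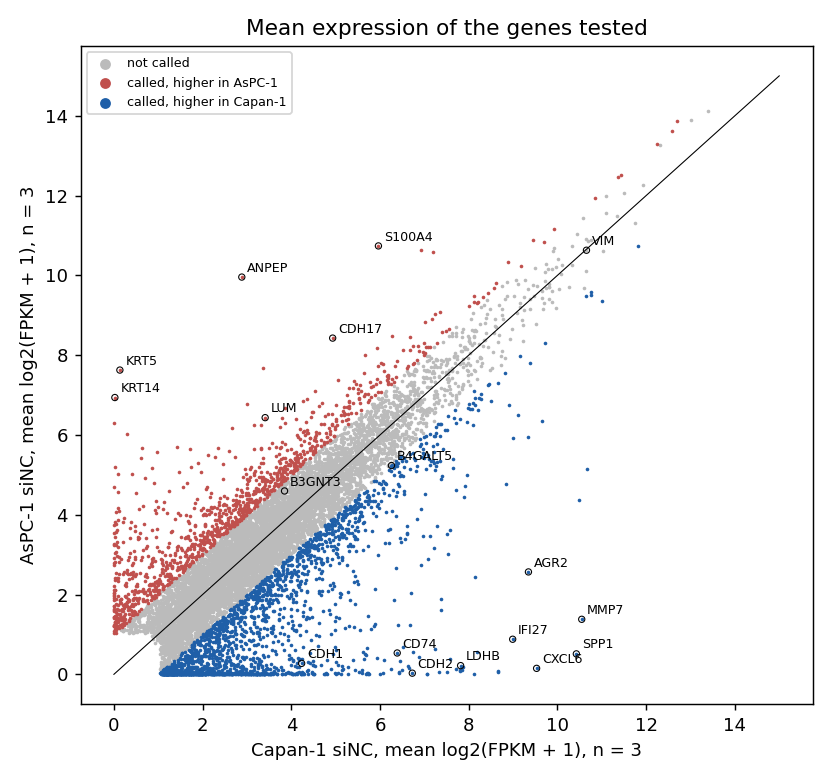
Mean log2(FPKM + 1) over 3 libraries in Capan-1 siNC (horizontal axis) and AsPC-1 siNC (vertical axis) for the tested genes, with called genes in colour and the line of equal level drawn. VIM lies on the line, KRT5 and KRT14 stand near the left edge and SPP1 and CXCL6 at the lower right.

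The ductal markers separated the lines. Both expressed the simple keratins: KRT19 was 635, 685 and 656 FPKM in the AsPC-1 libraries and 2045, 2029 and 2091 in those of Capan-1, a difference of -1.64 ± 0.03 (SE, n = 3 libraries a line; adjusted p = 6.02e-11). EPCAM, an epithelial surface adhesion protein, was 24.6 ± 1.38 FPKM (SD) in AsPC-1 and 49.3 ± 0.86 in Capan-1 and was just short of 2-fold at -0.97, or just past it, at -1.01, without AsPC-1 replicate 1. CDH1, which encodes E-cadherin, was 0.250, 0.173 and 0.207 FPKM in AsPC-1 against 18.7, 17.4 and 17.4 in Capan-1. KRT7 and MUC1, a ductal keratin and a membrane mucin, averaged 0.298 and 1.31 FPKM in AsPC-1 and 66.8 and 57.1 in Capan-1. Of the 10 ductal markers, 9 were tested, 3 of them through 1 line alone, and 6 were called, all higher in Capan-1. In every AsPC-1 library 4 of the 10 stayed under 1 FPKM. In AsPC-1 the ductal markers above 1 FPKM in every library were MUC1, EPCAM, SOX9 and the keratins KRT8, KRT18 and KRT19, while CDH1, KRT7 and CFTR were near 0.

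Markers of other cell types were mostly near 0 in both lines. PTPRC, CD3E, VWF, CDH5 and DCN, which mark leukocytes, endothelium and fibroblasts, averaged at most 0.025 FPKM in either line. PECAM1, the 1 endothelial marker tested, was called higher in Capan-1 (-1.22), and its list summed to 0.061 FPKM in AsPC-1 and 1.46 in Capan-1. BHLHA15, the 1 acinar marker tested, was called higher in AsPC-1 (1.89), with list sums of 5.49 and 0.75 FPKM. Both were tested through 1 line alone. The summed immune list was nonetheless 38.9 to 40.6 FPKM in AsPC-1 and 159.9 to 174.1 in Capan-1. Nearly all of it was CD68, a lysosomal protein that is not limited to macrophages, at 39.7 ± 0.91 FPKM (SD) in AsPC-1 and 163 ± 7.79 in Capan-1. Of the fibroblast list, LUM, a matrix proteoglycan, was 85.6 ± 6.14 FPKM (SD) in AsPC-1 and 9.64 ± 0.47 in Capan-1, and COL1A1, a collagen chain, was 0.423 and 49.95 FPKM. The list's sum was 80.8 to 92.6 and 57.4 to 63.3 FPKM.

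Of 12 keratins tested, 2 were called higher in AsPC-1, the basal pair KRT5 and KRT14, and 7 in Capan-1. Of all tested genes, 9.45% and 16.8% were called in these directions. Through 1 line alone 4 of the 12 were tested, KRT5 and KRT14 among them, and the filter favours a difference in these. KRT5 was 192, 205 and 193 FPKM in AsPC-1 and 0.0229, 0.0563 and 0.225 in Capan-1, the largest difference upwards among the keratins at 7.49 ± 0.07 (SE; adjusted p = 3.56e-13). Its partner KRT14 was 109, 140 and 118 FPKM against 0, 0.0154 and 0.0308. The other keratins of basal or stressed epithelium did not follow: KRT17 was called higher in Capan-1 (-1.46), and KRT15 (-0.86) and KRT16 (0.61) were not called. TP63, the transcription factor of basal epithelium, was nevertheless under 0.1 FPKM on average in both lines (0.011 and 0.027). Among single genes with large differences towards AsPC-1, CDH17, an intestinal cadherin, was 344 ± 16.1 FPKM (SD) in AsPC-1 and 29.6 ± 2.19 in Capan-1. ANPEP, a brush-border aminopeptidase, was 993 ± 38.1 and 6.44 ± 1.10 FPKM, and MYO1A, a brush-border myosin, was 24.9 ± 1.47 FPKM against at most 0.0119. S100A4, a calcium-binding protein, was at 1648, 1770 and 1703 FPKM in AsPC-1 and 55.0, 62.1 and 67.7 in Capan-1.

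Capan-1 had its own set of secreted and surface proteins. SPP1, which encodes osteopontin, was 1404, 1334 and 1387 FPKM in Capan-1 and 0.275, 0.512 and 0.505 in AsPC-1, a difference of -9.91 ± 0.06 (SE; adjusted p = 4.65e-14). MMP7, a matrix protease, was 1497 ± 94.6 FPKM (SD) in Capan-1 and 1.61 ± 0.18 in AsPC-1. AGR2, a disulfide isomerase of mucus-secreting cells, was 650 ± 27.0 and 4.94 ± 0.58 FPKM. MUC5AC, a secreted mucin, was 34.4 ± 5.46 FPKM in Capan-1 and 0.087 ± 0.047 in AsPC-1, while MUC13, a membrane mucin, went the other way at 13.4 and 77.3 FPKM. Of 6 mucins and trefoil factors tested, 3 of them through 1 line alone, 5 were called higher in Capan-1 and 1, MUC13, in AsPC-1.

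Neither line held one of the subtype lists as a whole, and many members were tested through 1 line alone: 7 of the 11 classical, 6 of the 15 basal-like, 7 of the 16 mesenchymal and 9 of the 21 junction genes tested. Of 24 classical genes 11 were tested: 6 were called higher in Capan-1, AGR2, CEACAM6 and LYZ among them, and 4 in AsPC-1, namely CDH17, MYO1A, CLRN3 and LGALS4. TSPAN8, a tetraspanin of the same list, was 47.3 ± 4.55 and 51.0 ± 1.42 FPKM (SD), and the 2 lines overlapped (adjusted p = 0.129). Of 25 basal-like genes 15 were tested, 8 called higher in Capan-1 and 2 in AsPC-1. UCA1, a long noncoding RNA, was 201 to 259 FPKM in Capan-1 and at most 0.109 in AsPC-1. FAM83A, a signalling adaptor, was 55.0 ± 0.72 FPKM (SD) in AsPC-1 and 10.8 ± 0.38 in Capan-1. Transcription factors of foregut and pancreas were called higher in Capan-1 for 9 of 20 tested and in AsPC-1 for 3, with 8 of the 20 tested through 1 line alone. FOXA1 was at most 0.160 FPKM in AsPC-1 and 11.2 ± 0.39 in Capan-1, and ELF3 was 5.38 and 80.6 FPKM. GATA6, the factor most often used to name the classical state, differed by less than 2-fold, at 5.23 and 9.15 FPKM.

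Genes of the mesenchymal state were divided as well. VIM, an intermediate filament, was 1574, 1566 and 1610 FPKM in AsPC-1 and 1657, 1598 and 1577 in Capan-1, and the lines overlapped (-0.02 ± 0.03, SE; adjusted p = 0.483). CDH2, which encodes N-cadherin, was 104, 107 and 104 FPKM in Capan-1 and at most 0.0385 in AsPC-1. FN1, the matrix protein fibronectin, was 51.3 ± 5.34 FPKM (SD) in Capan-1 and 0.589 ± 0.103 in AsPC-1, and the receptor kinase AXL was 155 and 39.2 FPKM. AsPC-1 had the higher level of SNAI2, a repressor of E-cadherin, at 22.2 ± 0.83 FPKM (SD) against 3.61 ± 0.55, and of its fellow repressor ZEB1, at 16.0 and 7.43 FPKM. The call of ZEB1, at 1.01, was lost without AsPC-1 replicate 3 (0.98) and after rescaling to a common sum (0.86). Of 16 genes of this state tested, 9 were called higher in Capan-1 and 4 in AsPC-1. Junction genes were called higher in Capan-1 for 11 of 21 and in AsPC-1 for 2.

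**Figure D2:**
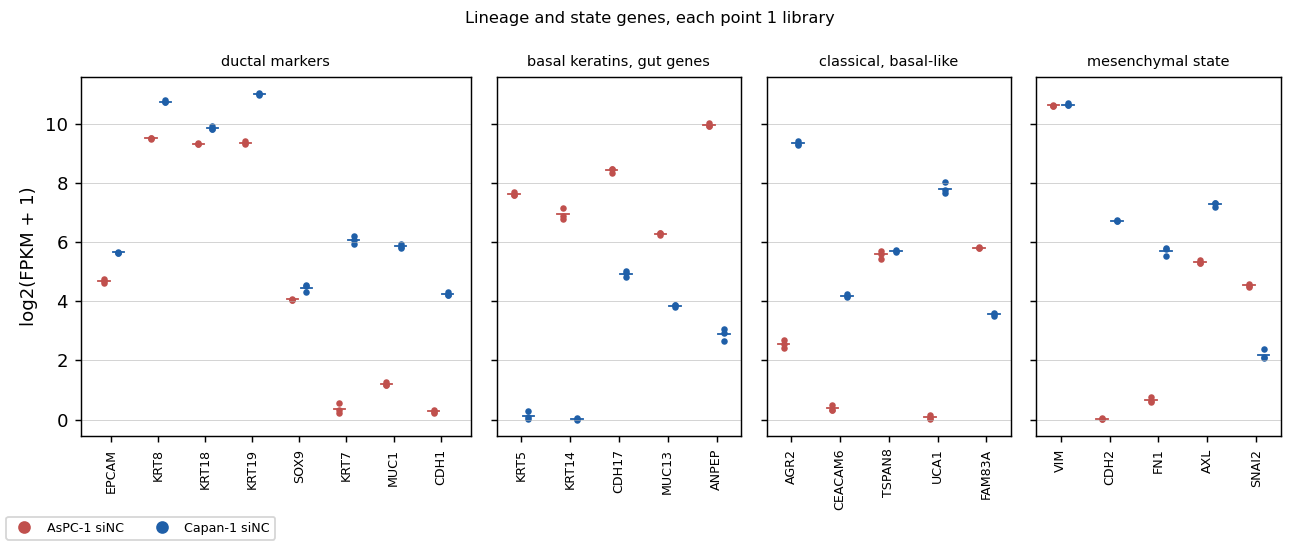
Log2(FPKM + 1) of lineage and state genes, with 1 point per library and a bar at the mean of the 3 libraries, AsPC-1 siNC in red and Capan-1 siNC in blue. CDH1 and KRT7 are near 0 in AsPC-1, KRT5 and KRT14 near 0 in Capan-1, and VIM is at the same height in both.

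Of 16 genes often altered in pancreatic cancer or beside CDKN2A, 1 was called higher in AsPC-1 and 3 in Capan-1, a share near the 26.3% of all tested genes called in either direction, and the median was -0.12. SMAD4, the shared mediator of TGF-beta signalling, was 4.38, 4.19 and 4.01 FPKM in AsPC-1 and 0.309, 0.207 and 0.281 in Capan-1. RNF43, a ligase that restrains WNT receptors, was at most 0.0339 FPKM in AsPC-1 and 6.23 ± 0.38 (SD) in Capan-1. CDKN2A, which encodes the cell cycle inhibitor p16, was 27.8, 28.6 and 28.6 FPKM in AsPC-1 and 33.4, 31.5 and 32.9 in Capan-1, and was not called. Capan-1 is catalogued with a homozygous deletion of CDKN2A, so this transcript in all 3 libraries labelled Capan-1 goes against that record. Its neighbour MTAP was 5.38 and 9.32 FPKM. The identity of the cells was not tested, since the table holds no sequence.

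The 2 targets of the study were not at the same level in the lines. B4GALT5, which adds galactose in lactosylceramide synthesis and to other acceptors, was 38.7, 35.8 and 35.5 FPKM in AsPC-1 and 74.2, 76.4 and 76.0 in Capan-1. The difference was -1.02 ± 0.04 (SE; adjusted p = 5.25e-09), a value so near 2-fold that median-ratio scaling of the libraries, at -0.93, and a test against a 2-fold bound both end the call. B3GNT3, which extends core 1 O-glycans with N-acetylglucosamine, was 22.5, 23.8 and 23.3 FPKM in AsPC-1 and 13.3, 13.2 and 13.7 in Capan-1. Its difference of 0.75 ± 0.04 (SE; adjusted p = 6.76e-08) stayed under 2-fold. In FPKM, which are scaled by length, B4GALT5 was thus above B3GNT3 in both lines.

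Within the beta-1,4-galactosyltransferases, 2 of 7 were called, both higher in Capan-1, and none in AsPC-1. Of all tested genes, 16.8% and 9.45% were called in these directions. B4GALT4 was the most unequal, at 11.5, 13.04 and 11.98 FPKM in AsPC-1 and 95.7, 97.5 and 96.7 in Capan-1 (-2.89 ± 0.05, SE; adjusted p = 1.1e-11). The family order by level therefore differed: B4GALT5 came first in AsPC-1 and B4GALT4 first in Capan-1. B4GALT1, B4GALT2 and B4GALT3 ranged from 15.2 to 26.3 FPKM over both lines' means and differed by less than 2-fold, and B4GALT6, the other lactosylceramide synthase, was 4.64 ± 0.33 FPKM (SD) in AsPC-1 and 1.97 ± 0.15 in Capan-1, at 0.92. Of 7 tested genes of the N-acetylglucosaminyltransferase and poly-N-acetyllactosamine list, B3GNT7 and GCNT2 were called, both higher in Capan-1. B3GNT7 was at most 0.00704 FPKM in AsPC-1 and 4.59 ± 0.46 in Capan-1. B3GNT2, the main poly-N-acetyllactosamine extender, was 10.5 and 6.4 FPKM, at 0.64.

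Single glycosphingolipid enzymes differed in both directions. ST3GAL5, which makes the ganglioside GM3, was 2.49, 3.02 and 2.28 FPKM in AsPC-1 and 19.8, 18.7 and 18.2 in Capan-1 (-2.47 ± 0.08, SE; adjusted p = 8.84e-10). B4GALNT1, which acts on the next step towards complex gangliosides, ran the other way, at 15.4 ± 0.70 FPKM (SD) in AsPC-1 and 1.74 ± 0.17 in Capan-1. GAL3ST1, which makes sulfatide, was also higher in AsPC-1, at 9.67 and 2.04 FPKM. A4GALT, the globoside branch enzyme, averaged 0.184 FPKM in AsPC-1 and 3.30 in Capan-1. NEU1, the lysosomal sialidase, was 1.51 ± 0.18 FPKM (SD) in AsPC-1 and 30.7 ± 1.65 in Capan-1. Of 26 tested genes, 3 of them through 1 line alone, 9 were called higher in Capan-1 and 4 in AsPC-1, with a median of -0.37. Ceramide synthesis was even: 2 of 15 were called in each direction, near the 9.45% and 16.8% of all tested genes.

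The lists of protein glycosylation differed in their counts. Of all tested genes, 9.45% were called higher in AsPC-1 and 16.8% in Capan-1. The counts of the sialyltransferases and O-glycan core enzymes given below rest on few genes and are near those shares. B3GALT5, which builds the type 1 chains that carry sialyl Lewis a, was 3.29 ± 0.37 FPKM (SD) in AsPC-1 and 27.5 ± 1.70 in Capan-1 (-2.73 ± 0.07, SE). Of 13 N-glycan branching enzymes 6 were called higher in Capan-1 and none in AsPC-1, MGAT5 among them at 4.28 and 11.8 FPKM and MGAT4A at no more than 0.0150 FPKM in any AsPC-1 library against 4.80 in Capan-1. Of 10 O-glycan initiating enzymes, 5 were called higher in Capan-1, with GALNT3 at 0.011 and 5.69 FPKM, and 1 in AsPC-1, GALNT7, at 17.5 and 6.72 FPKM. FUT8, which adds core fucose, was 3.31 and 17.6 FPKM. On the side of AsPC-1 stood the sialic acid enzyme GNE, at 37.4 ± 2.60 FPKM (SD) against 15.9 ± 1.93, the sialyltransferase ST6GALNAC4, at 38.7 and 12.5 FPKM, and the GDP-fucose transporter SLC35C1, at 17.8 and 4.17 FPKM. Sialyltransferases and sialic acid genes were split, 2 of 13 in each direction, with a median of 0.11. Fucosyltransferases and blood group enzymes were called higher in AsPC-1 for 2 of 7 and in Capan-1 for 3, and O-glycan core enzymes in Capan-1 for 1 of 4. Among the lectins that read these glycans, LGALS1 was 1281 ± 59.0 FPKM (SD) in AsPC-1 and 474 ± 33.2 in Capan-1, while LGALS3 was 25.2 and 242 FPKM.

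**Figure D3:**
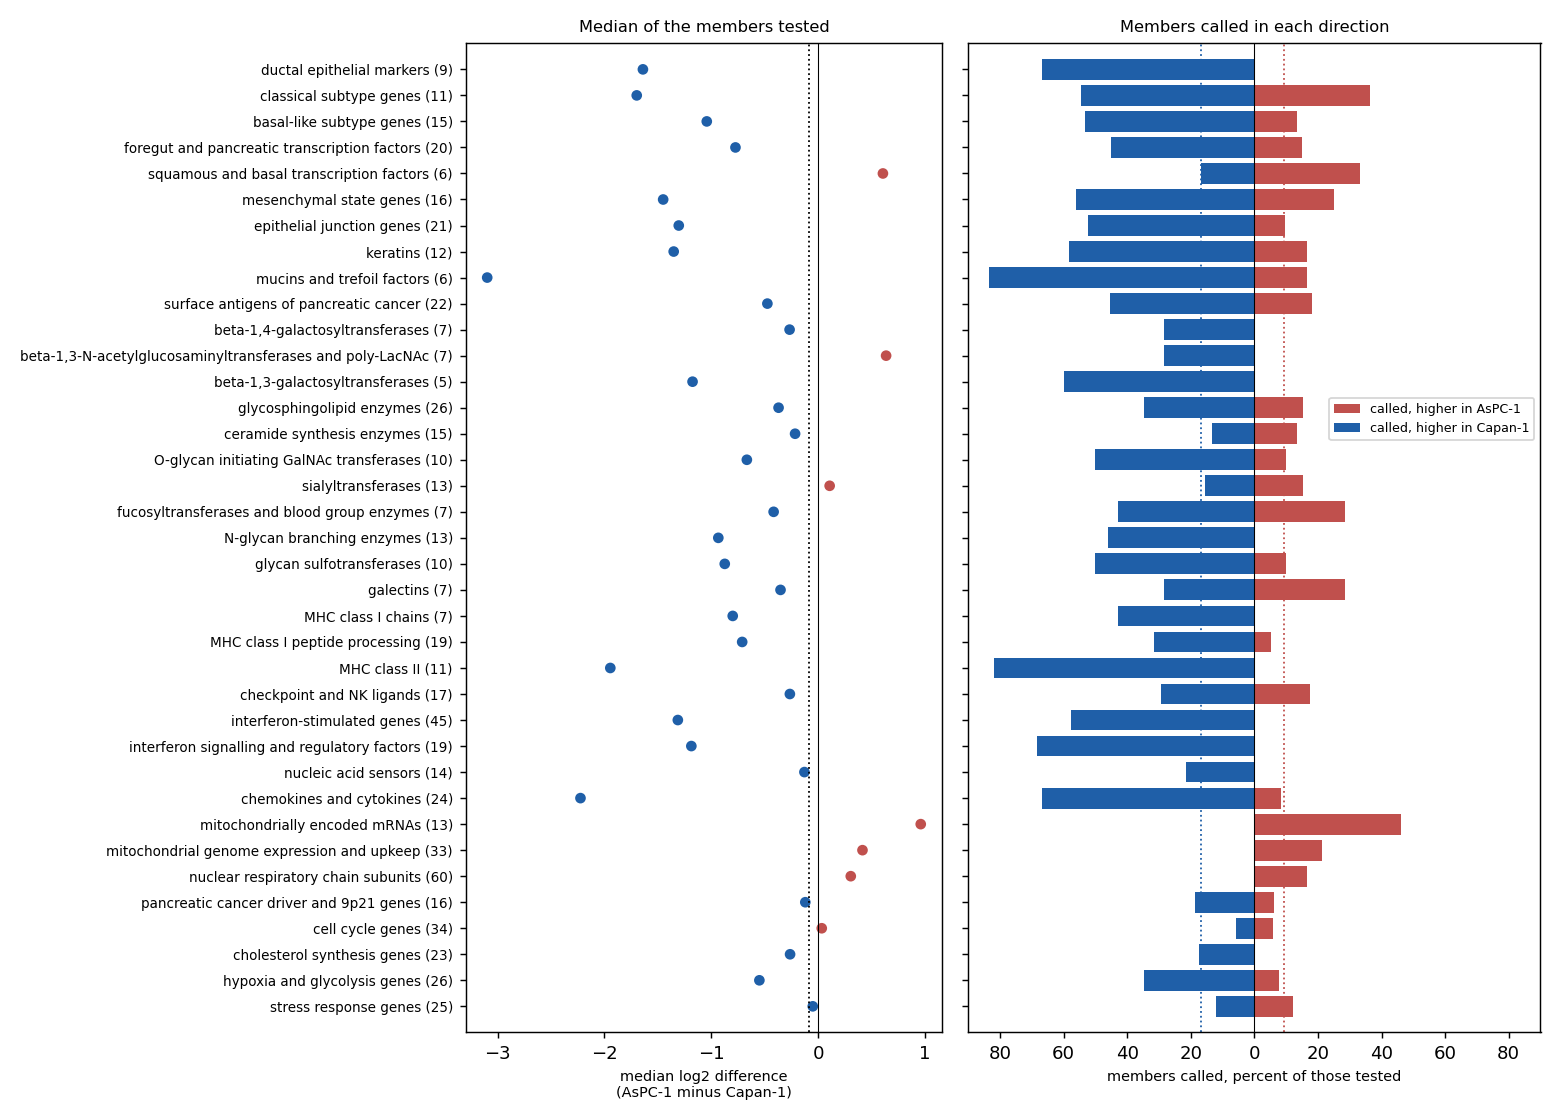
For each gene list with at least 5 tested members (number in brackets), the median log2 difference (left; dotted line, all tested genes) and the percent of members called in each direction (right; dotted lines, the 9.45% and 16.8% of all tested genes). The mucin, chemokine and MHC class II medians lie farthest to the Capan-1 side, with 3 of 6, 11 of 24 and 8 of 11 members tested through 1 line alone, and the 3 mitochondrial lists lie on the AsPC-1 side.

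MHC class I transcripts were higher in Capan-1 for every chain tested, but mostly by less than 2-fold. HLA-C was 39.5, 37.4 and 38.9 FPKM in AsPC-1 and 155, 143 and 148 in Capan-1, at -1.92 ± 0.04 (SE). HLA-B was closer, at 57.7, 57.7 and 67.0 FPKM in AsPC-1 and 89.2, 79.3 and 82.3 in Capan-1, and its difference of -0.46 was not called. B2M, the shared light chain, was 251 ± 11.6 and 422 ± 9.69 FPKM (SD), at -0.75, and HLA-E was 40.3 and 70.9 FPKM, at -0.80. Of the 7 chains tested 3 were called, HLA-C and MR1 among them, and all 7 had an adjusted p under 0.05. The classical chains are highly polymorphic and alike in sequence, so their FPKM also depend on how well each line's alleles match the reference, which was not tested.

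Of 19 genes listed for MHC class I peptide processing, 6 were called higher in Capan-1 and 1 in AsPC-1. The list also holds regulators that do not themselves process or load peptide, among them SUSD6, TMEM127, WWP2 and SPPL3. SUSD6, at -1.12, was among the 6, and TMEM127, WWP2 and SPPL3 were not called. TAPBP, which encodes the loading chaperone tapasin, was 23.3, 23.9 and 20.9 FPKM in AsPC-1 and 81.6, 81.5 and 83.8 in Capan-1 (-1.82 ± 0.05, SE). The peptide-loading chaperone CALR was 313 ± 5.04 and 840 ± 32.8 FPKM (SD), and its partner PDIA3 was 111 and 271 FPKM. Among the others, 3 interferon-inducible members were not called: TAP1, a subunit of the peptide transporter, was 19.2 and 33.2 FPKM at -0.76, and the immunoproteasome subunits PSMB8 and PSMB9 stood at -0.71 and -0.88, with PSMB9 past 2-fold, at -1.01, without AsPC-1 replicate 3. NLRC5, the transactivator of class I genes, was the 1 called higher in AsPC-1, at 5.94, 5.00 and 5.09 FPKM in AsPC-1 and 1.90, 2.00 and 2.07 in Capan-1 (1.08 ± 0.07, SE). Rescaling the libraries to a common sum brings it to 0.96 and ends that call, and with siB3GNT3 it was not called, at 0.45, or 0.54 without AsPC-1 replicate 3.

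MHC class II genes were nearly off in AsPC-1 and present at low to moderate level in Capan-1. CD74, the invariant chain, was 0.490, 0.560 and 0.308 FPKM in AsPC-1 and 81.03, 84.97 and 82.2 in Capan-1 (-5.85 ± 0.07, SE; adjusted p = 1.39e-12). HLA-DRA was 0.0821 ± 0.0409 and 12.1 ± 0.49 FPKM (SD), and HLA-DMA 3.15 and 23.5 FPKM. Their transactivator CIITA was too low to be tested, at a mean of 0.0086 FPKM in AsPC-1 and 0.248 in Capan-1. Of 11 genes tested 9 were called, all higher in Capan-1, and 8 of the 11 had passed the filter through Capan-1 alone. The median of -1.95 therefore rests on the filter: leaving out a Capan-1 library and filtering anew, which drops such genes, brought it as far as -0.27, while with the same genes tested it stayed between -1.95 and -1.88. The MHC genes share a stretch of chromosome 6 that was lower in AsPC-1 as a whole. In the window from 30000001 to 40000000 (GRCh38), the median of the 132 tested genes outside these lists was -0.67. That of the 15 within them was -1.63, but they mix both classes, and many class II members passed the filter through Capan-1 alone. TAP2, HLA-B, PSMB8, TAP1, HLA-E and PSMB9 lay between -0.16 and -0.88, and TAPBP and HLA-C at -1.82 and -1.92. The class II genes there ran from -1.30 (HLA-DOB) to -3.59 (HLA-DRA).

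Interferon-stimulated genes made up the longest of the immune lists. Of 45 tested, 26 were called higher in Capan-1 and none in AsPC-1, with a median of -1.31 beside -0.09 for all genes, although 7 of the 45 passed the filter through 1 line. IFI27 was 501, 483 and 541 FPKM in Capan-1 and 1.12, 0.618 and 0.812 in AsPC-1 (-8.11 ± 0.09, SE; adjusted p = 9.27e-13). MX1, an antiviral GTPase, was 29.3, 32.7 and 45.0 FPKM in Capan-1 and at most 0.117 in AsPC-1. IFITM1, which blocks viral entry, was 166 ± 7.41 FPKM (SD) in Capan-1 and 2.75 ± 0.66 in AsPC-1. The list was not off in AsPC-1, however. ISG15, the ubiquitin-like modifier, was 118 ± 8.06 and 308 ± 22.8 FPKM (SD), OAS1, a sensor of double-stranded RNA, was 24.03 and 36.9 FPKM at -0.59, and BST2, or tetherin, was 173 ± 8.94 and 184 ± 9.53 FPKM, with overlapping libraries (adjusted p = 0.116). OASL and SAMD9 leaned to AsPC-1 at less than 2-fold, with 0.82 and 0.45.

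The promoters of these genes were searched for the core of the interferon-stimulated response element, the site of the STAT and IRF complex, to see whether called and uncalled members differ in it. The letters AANNGAAAC were looked for on both strands from 250 bases before to 50 after the RefSeq start (GRCh38.p14). They were present in 28 of the 38 list promoters that matched by symbol, against 5.34% of all 27305 promoters: in 14 of 20 called higher in Capan-1 and in 12 of 15 tested and not called. A match describes letters only. Windows of 30 bases, 5′ to 3′ on the gene's strand with the match in capitals, are shown for 4 called genes and then for RSAD2 and SAMD9, which were not called.
IFI27, chr14:94110633-94110662, plus strand: gtttcctggaAAATGAAACctatctcattt
IFITM1, chr11:313992-314021, plus strand: aacagcaggaAATAGAAACttaagagaaat
IFITM3, chr11:320874-320903, minus strand: actgttgagaAACCGAAACtactggggaaa
ISG15, chr1:1013382-1013411, plus strand: gggaaagggaAACCGAAACtgaagccaaat
RSAD2, chr2:6865758-6865787, plus strand: cgccggcgggAAACGAAACccggagggagc
SAMD9, chr7:93118100-93118129, minus strand: cagatctgagAAATGAAACtgaaaccaaac
IFI27 and SAMD9 hold the same 9 letters within the match, yet IFI27 differed by -8.11 and SAMD9 by 0.45.

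Of 19 receptors, signal carriers and regulators of the interferon response tested, 13 were called higher in Capan-1 and none in AsPC-1, with a median of -1.19. Both chains of the type I interferon receptor were among them: IFNAR1 was 6.94 ± 0.15 and 20.6 ± 0.54 FPKM (SD), and IFNAR2 was 5.82 and 17.03 FPKM. IFNGR1, a chain of the interferon gamma receptor, was 5.37, 5.85 and 6.39 FPKM in AsPC-1 and 26.2, 24.5 and 24.9 in Capan-1. The kinase JAK1 was 23.9 and 66.1 FPKM and IRF9, a DNA-binding factor of interferon signalling, 15.1 and 46.8 FPKM. IFNAR1, IFNAR2 and IL10RB lie on chromosome 21, whose 120 tested genes had a median of -0.61. IFNGR2, the other chain of the interferon gamma receptor, lies on chromosome 21 too, but stood at 0.01 and was not called. IRF9 lies on chromosome 14, with a median of -0.81, and IFNGR1 on chromosome 6, with a median of -0.54. JAK1 lies on chromosome 1, in the window from 60000001 to 70000000, with a median of -0.61. STAT3 lies in the window of chromosome 17 described below. Sensors of nucleic acids differed little: 3 of 14 were called, all higher in Capan-1, near the 16.8% of all tested genes.

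Chemokines and cytokines were called higher in Capan-1 for 16 of 24 tested and in AsPC-1 for 2, with 11 of the 24 tested through 1 line alone. Their median was -2.22, and reached -0.81 when a Capan-1 library was left out and the filter applied anew, against -2.27 to -2.13 with the same genes tested. CXCL6, a neutrophil attractant, was 791, 727 and 700 FPKM in Capan-1 and 0.0990, 0.183 and 0.0492 in AsPC-1 (-9.38 ± 0.06, SE; adjusted p = 4.65e-14). CXCL5, its closest relative, was 409, 412 and 392 FPKM against at most 0.0526. CCL2, a monocyte attractant, was 361, 381 and 471 FPKM against at most 0.136. CXCL1 was expressed by both lines, at 80.2 ± 1.22 FPKM (SD) in AsPC-1 and 802 ± 14.4 in Capan-1, as was CXCL8, at 10.7 and 95.9 FPKM. IL6 was 19.7 ± 0.90 FPKM in Capan-1 and at most 0.00829 in AsPC-1. The genes of AsPC-1 were IL1A, at 6.37 ± 0.19 FPKM (SD) against 0.398 ± 0.112, and IL32, at 14.0 ± 2.22 against 1.62 ± 0.36.

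The 6 CXC genes on chromosome 4 that were called, CXCL1, CXCL2, CXCL3, CXCL5, CXCL6 and CXCL8, hold the letters GGANTTTCC of an NF-kB site in their promoters. Those letters, on either strand, were in 8 of the 22 promoters of the list that matched, against 1.6% of all promoters: in 7 of 10 called higher in Capan-1, in 1 of 2 called higher in AsPC-1, and in none of 4 not called. These CXC genes are paralogues with like sequence, so their matches are not separate observations, and reads could be shared between close pairs. The windows below show how alike they are, with IL6 and IL32 for comparison.
CXCL1, chr4:73869305-73869334, plus strand: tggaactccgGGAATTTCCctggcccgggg
CXCL2, chr4:74099253-74099282, minus strand: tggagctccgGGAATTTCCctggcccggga
CXCL3, chr4:74038748-74038777, minus strand: tggagctccgGGAATTTCCctggcccggcc
CXCL5, chr4:73998748-73998777, minus strand: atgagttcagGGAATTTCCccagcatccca
CXCL6, chr4:73836579-73836608, plus strand: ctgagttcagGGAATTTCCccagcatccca
CXCL8, chr4:73740468-73740497, plus strand: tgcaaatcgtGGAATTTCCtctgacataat
IL6, chr7:22727118-22727147, plus strand: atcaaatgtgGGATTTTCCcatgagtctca
IL32, chr16:3065325-3065354, plus strand: tcccgagtctGGACTTTCCctctgcccctc
The match is the same 9 letters in all the CXC genes shown, whose levels in AsPC-1 ran from about 0 (CXCL5, CXCL6) to 80.2 FPKM (CXCL1), and IL32, with its own match, was higher in AsPC-1.

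**Figure D4:**
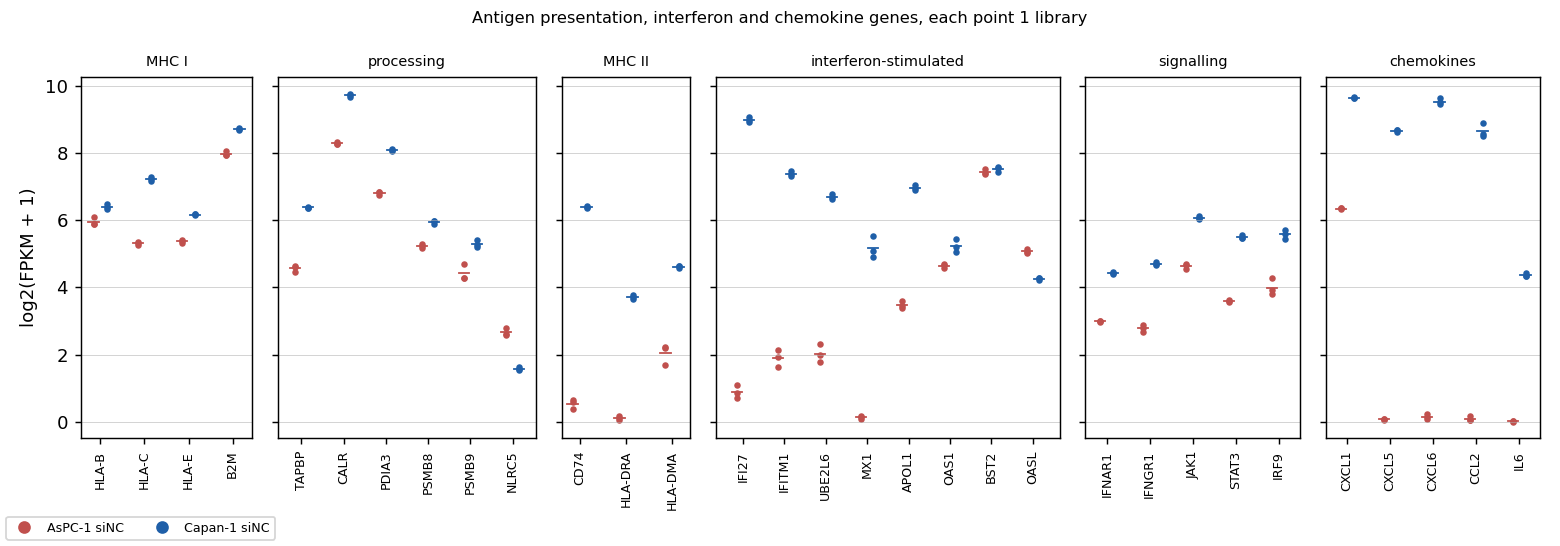
Log2(FPKM + 1) of antigen presentation, interferon and chemokine genes, with 1 point per library and a bar at the mean of 3, AsPC-1 siNC in red and Capan-1 siNC in blue. All genes drawn except NLRC5, OASL and BST2 have the Capan-1 libraries above those of AsPC-1, and BST2 overlaps.

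Mitochondrial transcripts made up more of the AsPC-1 libraries. The 13 mRNAs encoded by the mitochondrial genome, all subunits of the respiratory chain, took 24.8%, 24.8% and 23.8% of the FPKM sum in AsPC-1 and 14.3%, 14.8% and 14.5% in Capan-1. The means were 24.5% ± 0.55 and 14.6% ± 0.26 (SD, n = 3), and the libraries did not overlap; an exact permutation test, two-sided, gave p = 0.1, the smallest that 3 against 3 allows. The sums of the nuclear genes were alike, at 330826 ± 3598 and 333709 ± 4544 FPKM. All 13 mRNAs had an adjusted p under 0.05, with 6 called: COX3, which encodes cytochrome c oxidase subunit 3, was 14550, 15620 and 14730 FPKM in AsPC-1 and 6625, 6520 and 6765 in Capan-1 (1.17 ± 0.04, SE). The smallest difference was that of CYTB, at 4936 ± 31.5 and 3897 ± 39.6 FPKM (SD) and 0.34. Rescaling the libraries to a common sum, which the mitochondrial mRNAs themselves weigh on, leaves 1 of the 6 calls.

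Most nuclear genes of the same machinery were not called. Of 60 nuclear respiratory subunits 10 were called higher in AsPC-1 and none in Capan-1, with a median of 0.31. At any fold, 41 were higher in AsPC-1 and 14 in Capan-1. CYC1, cytochrome c1 of complex III, was 249, 258 and 258 FPKM in AsPC-1 and 50.6, 49.8 and 48.0 in Capan-1 (2.34 ± 0.03, SE; adjusted p = 5.29e-12). NDUFB9 of complex I was 544 ± 6.29 and 162 ± 8.77 FPKM (SD), and SDHA, the catalytic subunit of complex II, 90.9 and 27.4 FPKM. By complex, 4 of 28 were called in complex I, 1 of 4 in complex II, 1 of 7 in complex III, 1 of 10 in complex IV and 3 of 11 in ATP synthase, whose median was -0.05. Of the 10 called, 3 lie on chromosome 8, whose 410 tested genes had a median of 0.59; outside it 7 of 55 members with a position were called and the median was 0.29. Genes that express and maintain the mitochondrial genome were called higher in AsPC-1 for 7 of 33 and in Capan-1 for none. Of these 7, 2 lie on chromosome 8 and 4 on chromosome 2, whose 735 tested genes had a median of 0.255. The 7 included LRPPRC, which stabilises mitochondrial mRNAs, at 71.2 ± 2.16 and 27.6 ± 0.68 FPKM (SD). Another was the mitochondrial RNA polymerase POLRMT, at 19.3 and 8.74 FPKM, whose call rescaling to a common sum ends at 0.90. LDHB, which turns lactate to pyruvate, was 0.130, 0.131 and 0.232 FPKM in AsPC-1 and 235, 220 and 219 in Capan-1, whereas LDHA was 858 and 693 FPKM.

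**Figure D5:**
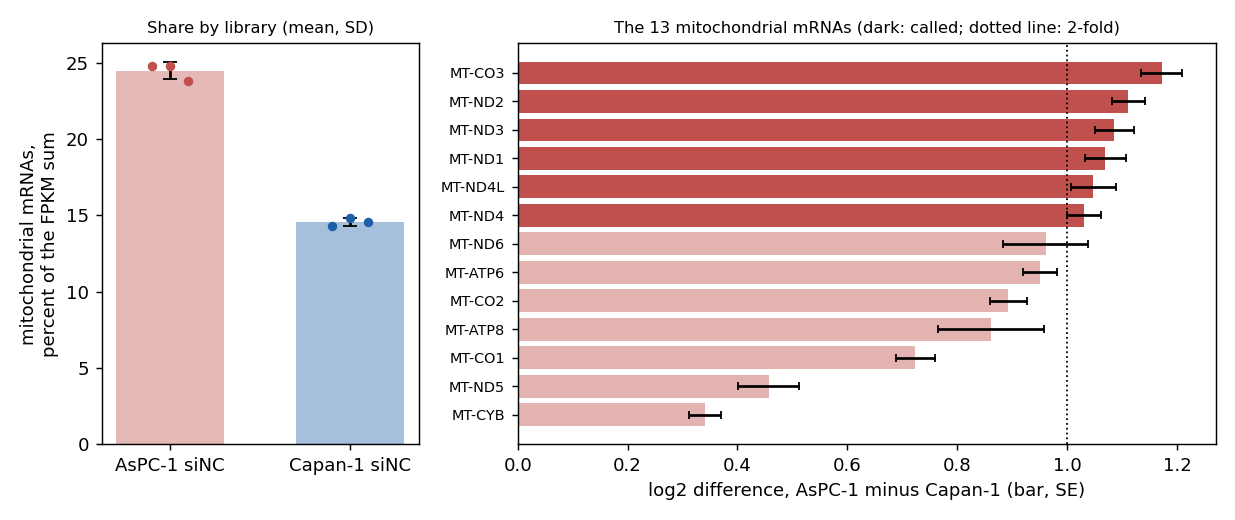
Left, the percent of the FPKM sum in the 13 mitochondrial mRNAs, with bars at the mean of 3 libraries, SD as error bars and 1 point per library. Right, the log2 difference of each mRNA with its SE; all 13 lie above 0, the smallest at 0.34, and 6 (dark) are past 2-fold.

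Differences also followed position in the genome. Genes were placed by RefSeq positions on GRCh38, the build the submitters name, which 24264 of the 25503 symbols had. Chromosome 8 was higher in AsPC-1, with 116 of 410 tested genes called there and 45 in Capan-1. Chromosome 14 was lower, with a median of -0.81, 6 called higher in AsPC-1 and 145 in Capan-1. The lowest 10 Mb window held 159 tested genes of chromosome 17, from 40000001 to 50000000: its median was -1.06, and 85 were called higher in Capan-1 against 4. That window contains STAT3 and 6 of the tested keratins, including KRT19 and KRT10 (both higher in Capan-1) and KRT14, which was higher in AsPC-1 all the same. The highest window, 76 genes at the end of chromosome 8 from 140000001 to 150000000, had a median of 1.00. Copy number was not measured in these files.

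The siB3GNT3 libraries compared the same lines in libraries that share none with the siNC set, but both lines then carried an siRNA against B3GNT3. Where the 2 sets differ, a response to that siRNA and a difference between sets of libraries cannot be told apart. One of the siB3GNT3 libraries, AsPC-1 replicate 3, goes against its label. Its B3GNT3 was 24.2 FPKM, while AsPC-1 replicates 1 and 2 had 2.527 and 2.504 and the AsPC-1 siNC libraries 22.5 to 23.8. Of 11772 genes tested there, 1290 were called higher in AsPC-1 (11.0%) and 2108 in Capan-1 (17.9%), and without that library 1394 (11.8%) and 2087 (17.7%). Of the 2984 genes called with siNC and tested there, 2979 had the same direction and 2570, or 86.1%, were called the same way. Those 2570 were 78.2% of the 3287 genes called with siB3GNT3 and tested in both sets. Without replicate 3, 2452 were called the same way. They were 82.2% of the 2984, and 72.9% of the 3362 then called and tested in both sets. The interferon-stimulated genes were called higher in Capan-1 for 26 of 45 and in AsPC-1 for 2, with a median of -1.25. Without that library the counts were 20 and 3 and the median -0.80, beside -1.31 with siNC. MHC class II stayed at 9 of 11 in both. The mitochondrially encoded mRNAs were called higher in AsPC-1 for 2 of 13, and 1 without it, with medians of 0.72 and 0.58 beside 0.96 with siNC. Nuclear respiratory subunits were called higher in AsPC-1 for 12 of 60, and 11 without it. The mitochondrial share in AsPC-1 siB3GNT3 was 20.1%, 19.8% and 24.3%, the last in the doubtful library, and 13.6% to 14.4% in Capan-1 siB3GNT3.

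Single genes show how far the comparison moved. CDH1 was at -3.96 with siNC, -4.25 with siB3GNT3 and -4.13 without the doubtful library, and KRT5 at 7.49, 6.97 and 6.69. ZEB1 did not keep its difference: it was 1.01 with siNC and -0.01 and -0.10 in the siB3GNT3 libraries (adjusted p = 0.971 and 0.699). IFI27 narrowed from -8.11 to -6.09 and, without that library, -4.80, while OASL widened towards AsPC-1, from 0.82 to 1.92 and 2.44.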

How the data were processed

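RNA-seq values of 6 siNC libraries were used, 3 a line, with 6 siB3GNT3 libraries as another set. The authors deposited 1 table of FPKM by gene and library. Per the submitters' processing notes, Bowtie2, RSEM 1.3.1, DESeq2 1.4.5 and GRCh38 were involved, with no roles given; no source used here names the gene annotation. FPKM were taken as deposited, without rescaling. The test of line differences on log2(FPKM + 1) was limma's (version 3.58.1, run under R 4.3.3) with a trend on mean level, for genes at 1 FPKM or more in at least 3 libraries, with Benjamini-Hochberg adjustment. The code was tested on simulated data. Only relative depth could be read, so no counting interval is given.

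Of 792 names in 43 gene lists, 11 were absent and 2 matched by an older symbol. Members, lists and tests were chosen with earlier results of these data known. Genes named were the targets, cell type markers, MHC and mitochondrial genes; up to 8 called and 4 uncalled members of each other list; up to 15 per direction over all genes; up to 10 per direction of the genes on in 1 line alone; and genes of runs by position. Not all of them are described. TP63, ZEB1, MTAP, B4GALT6, TAP1, ISG15, SAMD9, RSAD2, IFITM3, CXCL2, CXCL8, IL1A and IL32 were named after their values were seen. Positions and promoters came from RefSeq (GRCh38.p14). Results for some genes are not reported here.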

Additional observations from a re-analysis of the deposited data

Results flagged for a closer look

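KRT17, a keratin of basal and stressed epithelium, differed between the lines in opposite directions in the 2 sets of libraries. With siNC it was 7.71, 7.04 and 6.04 FPKM in AsPC-1 and 19.0, 19.9 and 23.7 in Capan-1, a log2 difference of -1.46 (adjusted p = 1.89e-07 in limma). With siB3GNT3 it was 40.8, 47.9 and 7.17 FPKM in AsPC-1, the last in the library whose label is in doubt, and 7.36, 8.20 and 9.66 in Capan-1. Without that library the difference was 2.27 (adjusted p = 7.21e-06), and with it 1.45 (adjusted p = 0.0741). The 2 line differences themselves differed by 2.91 ± 0.71 (SE; adjusted p = 0.0287 over 12134 genes, limma on 12 libraries), and by 3.74 ± 0.17 without the doubtful library (adjusted p = 3.43e-07). KRT17 has near-identical pseudogene copies with which reads could be shared, and their part was not tested.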

How the results depend on the processing

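Of the 130 tested genes named, 118 kept their direction and their side of the call under every alternative that tested them. A gene that an alternative's filter dropped had no call there and was not counted as changed. B4GALT5, GNE, NLRC5, POLRMT and ZEB1 lost the call in a test against a 2-fold bound, B4GALT5 also with median-ratio scaling (-0.93), and NLRC5, POLRMT and ZEB1 also after rescaling to a common sum (0.96, 0.90 and 0.86). EPCAM and PSMB9 passed 2-fold after that rescaling (-1.13 and -1.03), and B4GALT6, RSAD2 and KRT15 with a pseudocount of 0.1 (1.19, -1.12 and -1.07). Leaving out 1 AsPC-1 library ended the call of ZEB1 and made those of EPCAM and PSMB9. VIM and BST2, which were not called, changed sign with median-ratio scaling (0.0759 and 0.0119). The median over all tested genes, -0.087 as deposited, was -0.233 after the common-sum rescaling and 0.0015 after median-ratio scaling. At any fold, 4417 genes were higher in AsPC-1 and 5474 in Capan-1. A filter of 5 FPKM left 1213 genes called higher in Capan-1. Leaving out each library in turn gave 819 to 1104 genes higher in AsPC-1 and 1013 to 1992 in Capan-1 with siNC, and 996 to 1394 and 1095 to 2134 with siB3GNT3. The low ends arise because the filter needs 3 libraries and so drops genes expressed only in a line left with 2. With the same genes tested, an alternative chosen after seeing the data, the siNC ranges were 1087 to 1104 and 1962 to 1992. The mitochondrial difference was 9.747 to 10.23 percentage points.

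Among the list medians that changed sign were those of the sialyltransferases (-0.0019 with no filter, -0.1096 with a common sum), the cell cycle genes (-0.1259 with a common sum) and the stress genes (0.0486 with median-ratio scaling, 0.0219 without Capan-1 replicate 1 and the same genes tested). Leaving out a library and applying the filter anew gave medians from -2.8682 to 3.183 for classical genes, -1.5799 to 0.2679 for the mesenchymal state, -0.1094 to 0.039 for stress genes and -0.1291 to 0.0165 for all genes. The classical, mesenchymal and all-gene medians thus changed sign too. With the same genes tested they stayed at -1.7832 to -1.5858, -1.4699 to -1.4365 and -0.0955 to -0.0803. With the replicate block, counts stayed at 1101 and 1963 with siNC and 1290 and 2108 with siB3GNT3; same-numbered libraries correlated at -0.0526, -0.0106 and -0.0183, so the numbers do not pair them. Relative depth alone was known, so limits from counting could not be set.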

Other observations

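Some genes were on in one line and off in the other. With off set at under 0.1 FPKM in all 3 libraries and on at 5 FPKM or more in all 3, 23 genes were on in AsPC-1 alone and 146 in Capan-1 alone. SPINK6, a protease inhibitor, led the first group after KRT14, at 78.1, 68.1 and 87.2 FPKM in AsPC-1 and 0 in every Capan-1 library. The second included BNIP3, a mitophagy receptor induced by hypoxia, at 66.6 ± 5.12 FPKM (SD) in Capan-1 and at most 0.0665 in AsPC-1, SOX2, a stem cell factor, at 15.4 FPKM, and NNMT, a methyltransferase, at 161 FPKM. Both limits were met again in the siB3GNT3 libraries by 17 of the 23 and 123 of the 146, the doubtful library included.

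Silent genes also lay side by side. Runs of 5 or more neighbouring genes, all under 0.1 FPKM in one line with at least 3 at 1 FPKM or more in the other, numbered 1 expressed in AsPC-1 and 7 expressed in Capan-1. The first was part of the HOXC cluster on chromosome 12, with HOTAIR and HOXC11. Those of Capan-1 included a run of 21 genes across the protocadherin alpha and beta clusters on chromosome 5. Only 4 of the 21 reached 1 FPKM in every Capan-1 library. Another run held 11 genes around SNHG14 on chromosome 15, a region of imprinted genes, and again 4 of them reached that level. DNA was not measured.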
